A study of Mus musculus with 19 samples.

Results

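The CpG sites of mouse chromosome 14 that passed the study's thresholds were described along the chromosome, which carries Mat1a, the gene deleted in the study's animals. Members were all lines of the authors' deposited tables with chromosome 14 as the chromosome, united by position and strand, which gave 331 sites of 8525 listed over the genome. DNA methylation had been read by reduced-representation bisulfite sequencing of liver DNA cut with MspI and TaqαI. The labels describe 5 Mat1a knockout (KO) mice given S-adenosylmethionine (SAMe), 6 Mat1a KO mice given placebo and 8 untreated wild-type (WT) mice. All 19 animals were aged 10 months, and treatment lasted 8 weeks by the series title. The sources used here do not give the deletion's design, the strain of origin of the KO allele or the cells in which it acts. The WT animals were untreated, so each comparison with WT changes both genotype and procedure.

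Mat1a encodes the methionine adenosyltransferase of adult liver, which makes SAMe from methionine and ATP. SAMe donates the methyl group that DNA methyltransferases place on cytosines of CpG dinucleotides. Methylation of CpG sites near transcription starts is commonly linked to low gene activity, and most other CpG sites of adult tissues are methylated. A bisulfite-treated unmethylated cytosine is read as thymine, and so is a cytosine replaced by thymine in the genome. The KO allele lies on the chromosome described here, so a base difference linked to that allele and a difference in methylation cannot be told apart at a listed site.

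The authors' deposited tables hold, per CpG site, a difference between group methylation levels in percentage points, a p-value and a q-value. They hold no level, coverage or value of any animal, so depth is unknown and no SD can be given. Listed values all have an absolute difference above 20 and a q-value under 0.05, and a site that a table lacks may have failed these limits or had too few reads. Differences were read as KO minus WT and as SAMe minus placebo among KO mice, an order that the tables do not state. At the 6 chromosome 14 sites in all 3 tables, adding the difference between the KO groups to the placebo value gave the SAMe value against WT, within 1e-08. All tables thus share 1 orientation, and if it is the reverse, every direction below turns round together. The comparisons share the WT animals or a KO group, so they are not independent of each other.

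Reference sequence shows where listed sites lay in promoters. RefSeq promoter windows (GRCm38.p6, the assembly behind mm10) of 300 bases, 250 before and 50 after a transcription start, were matched by position. Of 1358 such windows on chromosome 14, from 1092 genes, 5 held a listed site, and 7 sites lay in them. These windows are narrow, and more sites lay within 1 kb of a coding gene's start. With SAMe these were 28 of 203 sites (13.8%), beside 7.66% of 5219 listed sites on all chromosomes with such starts. With placebo they were 33 of 280 (11.8%), beside 7.07% of 6502. Of the 850 coding genes, 675 had a window, and 27 of the 108 with a listed site inside them had none, Gata4, Clu, Adra1a and Slc39a14 among them. The listed base was a C of a CpG on its own strand at each of the 7. The 3 genes with the largest differences among the 5 are shown 5′ to 3′ in the direction of the gene, with the listed CpG sites in capitals. Bmp4 and Arhgef3 are given by the 250 bases before the start, and Klhl33 by 30 bases that include a site after the start.
Bmp4, chr14:46390670-46390919, minus strand: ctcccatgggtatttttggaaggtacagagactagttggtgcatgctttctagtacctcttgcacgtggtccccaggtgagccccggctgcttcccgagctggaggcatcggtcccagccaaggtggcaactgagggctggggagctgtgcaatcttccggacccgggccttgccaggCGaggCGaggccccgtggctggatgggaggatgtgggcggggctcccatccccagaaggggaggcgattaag
Arhgef3, chr14:27143743-27143992, plus strand: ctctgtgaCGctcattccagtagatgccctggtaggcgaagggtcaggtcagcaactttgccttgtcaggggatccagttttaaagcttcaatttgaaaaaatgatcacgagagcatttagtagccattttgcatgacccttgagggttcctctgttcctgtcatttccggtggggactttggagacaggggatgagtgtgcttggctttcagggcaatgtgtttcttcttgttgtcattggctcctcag
Klhl33, chr14:50897434-50897463, minus strand: agagggcaagcagaagccCGgtgtctcctg

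In the Bmp4 window, which holds 12 CpG sites, the 2 listed ones lay 67 and 72 bases before the start of this secreted bone morphogenetic protein gene. The one 72 bases before the start differed from WT by −36.2 percentage points in SAMe-treated KO liver and −39.1 in placebo-treated KO liver in the authors' deposited tables. The one 67 bases before the start stood at −26.1 with SAMe and −24.3 with placebo in the authors' deposited tables. Arhgef3, a guanine nucleotide exchange factor gene, had a site 242 bases before one of its 4 starts in the table, which lies 29.5 kb inside the gene, at −37.0 with SAMe and −41.2 with placebo in the authors' deposited tables. The Klhl33 site, 38 bases after the start of this kelch-like gene, stood at −56.3 with SAMe and −49.9 with placebo in the authors' deposited tables. At these 4 promoter sites the listed level was lower than in WT in both KO groups. So it was at most listed sites, 97.5% on chromosome 14 and 99.0% genome-wide with SAMe. With placebo the shares were 97.1% and 99.4%. The other 2 genes were Ptpn20, a tyrosine phosphatase gene with 2 listed sites, and Nynrin.

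The first comparison asked how placebo-treated KO liver differed from WT liver on chromosome 14. Of 280 listed sites, 272 were lower with placebo than in WT (97.1%, exact binomial 95% interval 94.4 to 98.8, counting error only, with neighbouring sites not independent) and 8 were higher. The largest q-value of the authors' own test among them was 0.00305. Higher sites made up 0.64% of all sites listed for this comparison genome-wide and 2.86% of those on chromosome 14. The median difference was −25.9 percentage points on chromosome 14, with quartiles of −32.6 and −22.7, and −25.9 over all listed sites. The sites lay in or within 2 kb of 110 of 850 coding genes (12.9%), against 12.5% of coding genes genome-wide. In its median and its share of genes the chromosome was close to the genome as a whole.

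The chromosome stood apart at the upper end of the size range. An absolute difference of at least 60 percentage points was listed at 17 of 280 chromosome 14 sites (6.07%, exact binomial 95% interval 3.58 to 9.54), against 0.595% of all sites listed in KO placebo vs WT. The chromosome held 42.5% of the 40 sites of that size in the genome and 4.17% of all sites. Chromosome 12, with the next highest count, had 4 of 259. All 10 sites of at least 80 points in the authors' deposited table for this comparison lay on chromosome 14, as did 5 of the 6 listed for KO SAMe vs WT, the other being on chromosome 10 (−82.5). At 40 points or more there were 46 sites (16.4%), against 9.27% of all listed sites, and chromosome 18 had a higher share, 39 of 215 (18.1%). No test was made of these shares. The site just inside the level of 60 stood at −60.3 and the one just outside at −59.9 in the authors' deposited table.

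**Figure D1:**
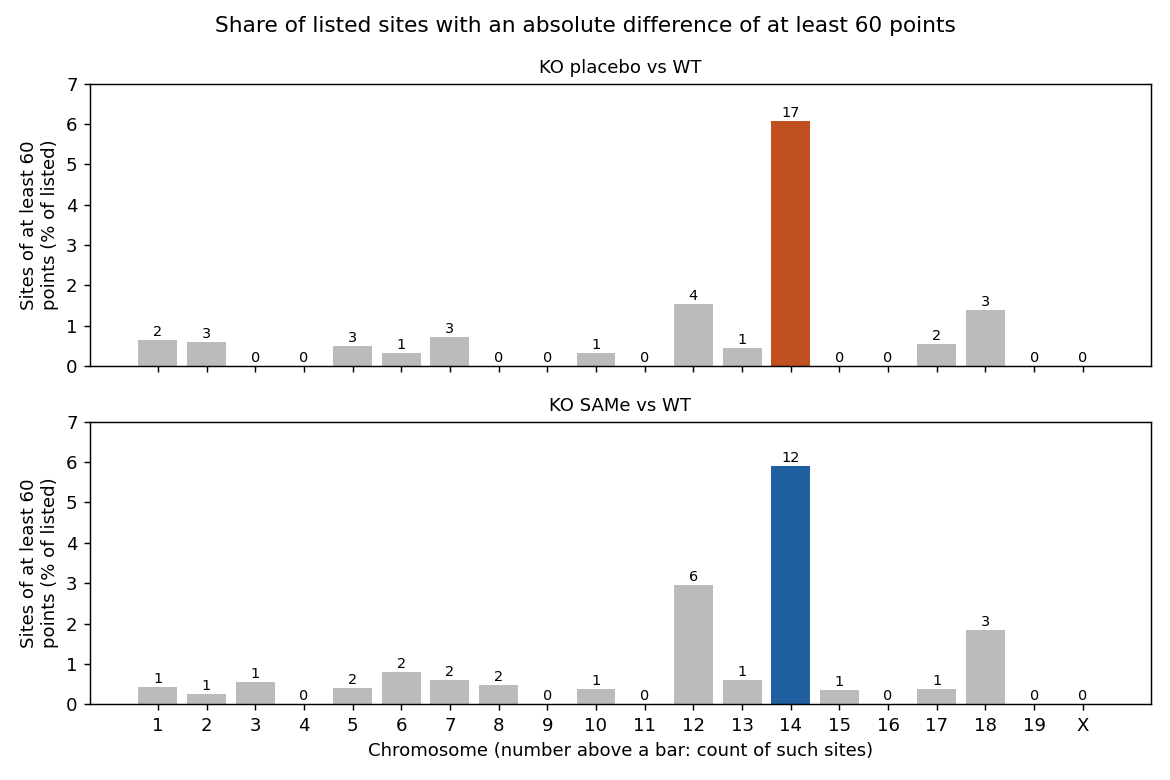
Share of listed CpG sites with an absolute difference of at least 60 percentage points, by chromosome, for KO placebo vs WT (upper) and KO SAMe vs WT (lower). Numbers above bars are counts, and chromosome 14 (coloured) has 17 of 280 and 12 of 203 sites.

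All 17 large differences were losses with q-values listed as 0. Of these, 14 stood alone, with no other listed site within 1 kb, beside 121 of the 280 chromosome 14 sites and 3408 of 6721 genome-wide. Coding genes held 11 of the 17, near the general share of 68.9% on chromosome 14 and 69.1% genome-wide. The largest loss was in Arhgef40, a guanine nucleotide exchange factor gene, at position 52002288, −97.4 percentage points in the authors' deposited table. Its nearest listed neighbour, 1757 bp away in the same gene, stood at −20.6 in the authors' deposited table. Large losses thus stood mostly alone among listed sites. Unlisted CpG sites beside them may have lacked coverage or missed the thresholds. Shld2, a subunit gene of the shieldin DNA repair complex, had −95.5 at position 34243479, with the nearest listed site 56703 bp away, in the authors' deposited table. Gch1, which starts tetrahydrobiopterin synthesis, had −94.1 at position 47158699, with the nearest listed site 340365 bp away, in the authors' deposited table. A site 55.2 kb from Peli2, an E3 ubiquitin ligase gene of innate immune signalling, had −93.7 at position 48336747 in the authors' deposited table. Beside Dad1, a subunit gene of the oligosaccharyltransferase complex, a site 0.899 kb outside the gene (54234586) had −79.9, while a site 26 bp away had −23.6, in the authors' deposited table.

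Other losses of at least 60 points were spread over genes of varied roles. Rhobtb2, an atypical GTPase gene, stood at −93.3 (69796671) and Adra1a, an alpha-1 adrenergic receptor gene, at −87.0 (66689596) in the authors' deposited table. Efs, a signalling scaffold gene, had −83.5 (54920241) and Wdfy4, which acts in antigen cross-presentation by dendritic cells, −82.1 (33052848) in the authors' deposited table. Sites outside genes stood at −82.8, 6.24 kb from the kinesin gene Kif13b, and at −82.4, 12.8 kb from the glutamate receptor gene Grid1, in the authors' deposited table. The unnamed coding gene 3425401B19Rik had −75.1 (32682435) and the melanopsin gene Opn4 −61.0 (34596224) in the authors' deposited table. The other 4 of the 17 lay over 60 Mb from Mat1a, near or in Rbm26, Tgds, Gpr180 and Abcc4, and are described with the SAMe comparisons.

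**Figure D2:**
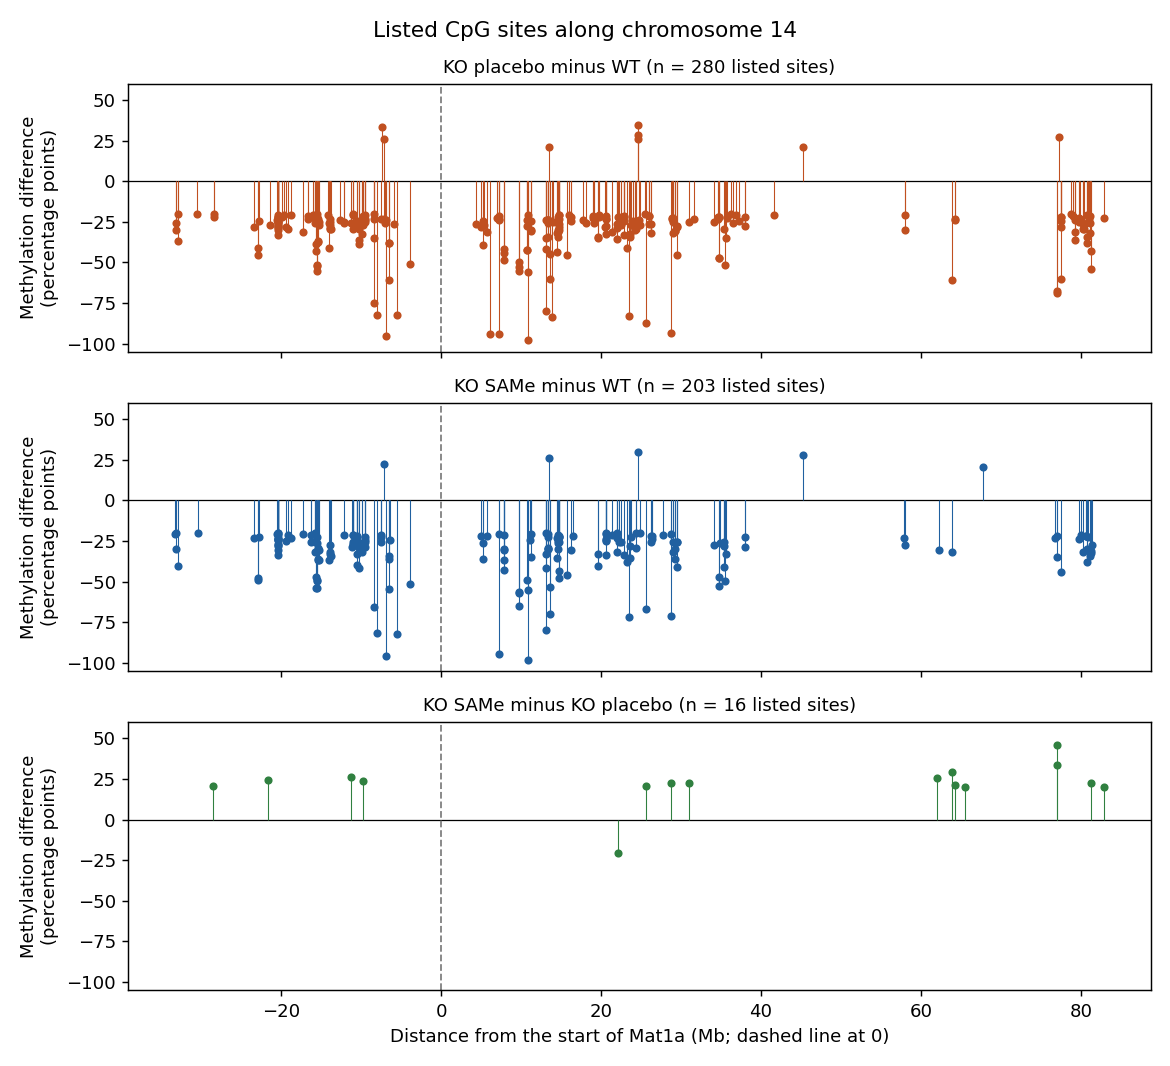
Methylation difference in percentage points at each listed chromosome 14 site against distance from the start of Mat1a in Mb, for KO placebo minus WT (280 sites), KO SAMe minus WT (203) and KO SAMe minus KO placebo (16). Losses of over 90 points lie within 30 Mb of Mat1a, as do 165 of the 203 SAMe sites and 219 of the 280 placebo sites. The nearest listed site is 3.93 Mb from Mat1a.

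Mat1a itself (41105012 to 41124428, mm10) had no listed site, nor did its surroundings. The nearest listed sites were at 37171573, 3.93 Mb to the left, and 45452577, 4.33 Mb to the right. This stretch of 8.28 Mb was the 21st longest of 8503 distances between neighbouring listed sites in the genome. It was the third longest on chromosome 14, after stretches of 12.6 and 8.96 Mb that wholly contain 7 and 3 coding genes. The stretch around Mat1a wholly contains 71 coding genes. Of these, 43 (60.6%) have symbols that begin with Gm and a digit or with LOC, a naming style of predicted genes. Other genes of the stretch include Mbl1, a liver lectin of complement activation, the surfactant protein genes Sftpa1 and Sftpd, and the neuregulin gene Nrg3. Whether these genes were covered cannot be told from lists of passed sites.

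Within 5 Mb of Mat1a, 3 sites were listed for placebo-treated KO and 2 for SAMe-treated KO. The site at 37171573, 36 kb from the mitochondrial gene Ghitm, stood at −51.2 in both KO groups in the authors' deposited tables. The site 6 kb from Fermt2, an integrin adhesion gene, was listed for placebo alone, at −26.1, in the authors' deposited table. A pair of sites 316 kb from Bmp4 gave −22.2 in SAMe-treated KO and, at a neighbouring position, −28.3 in placebo-treated KO in the authors' deposited tables. Within 10 Mb of Mat1a, 7 of 45 listed sites (15.6%) reached 60 points in placebo-treated KO, and 10 of 235 elsewhere on the chromosome (4.26%). In SAMe-treated KO it was 6 of 33 (18.2%) within 10 Mb and 6 of 170 elsewhere (3.53%). The contrast varied with the distance chosen. Within 20 Mb the shares were 8.18% against 3.23% elsewhere with SAMe, and 6.94% against 5.15% with placebo. Within 30 Mb they were 7.27% (12 of 165) against 0 of 38 with SAMe, and with placebo the order was the reverse, 5.94% against 6.56%.

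**Figure D3:**
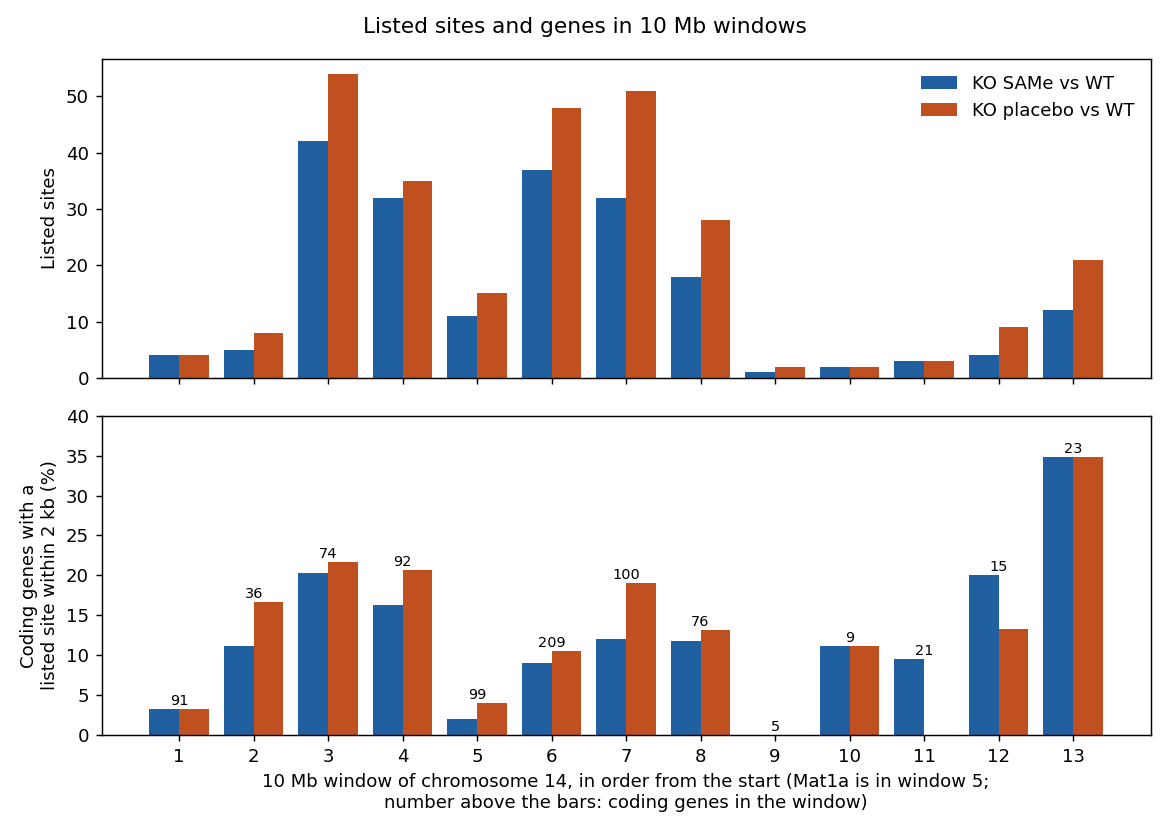
Listed sites (upper) and percentage of coding genes with a listed site within 2 kb (lower) in 10 Mb windows along chromosome 14, for KO SAMe vs WT (left bars) and KO placebo vs WT (right bars). Window 5, which holds Mat1a, has 2.02% and 4.04% of its 99 coding genes hit.

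Counts of sites followed the coding genes only in part. The window from 50 to 60 Mb had the most coding genes, 209, and 9.09% of them had a listed site in SAMe-treated KO and 10.5% in placebo-treated KO. The window from 20 to 30 Mb had 74 coding genes, of which 20.3% were hit with SAMe and 21.6% with placebo. The last window, from 120 Mb on, had 8 of 23 genes hit in each comparison (34.8%). Between 80 and 90 Mb, where 5 coding genes lie, 1 site was listed with SAMe and 2 with placebo.

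Most chromosome 14 sites were moderate losses, and 228 of the 331 lay inside a coding gene. A further 18 lay within 2 kb of one, and 85 lay farther away, 20 of them inside a noncoding RefSeq gene. Exons and introns were not told apart. Zmiz1, a coregulator gene of nuclear receptors and Notch signalling, had 8 sites in SAMe-treated KO (mean −41.6 percentage points, −53.8 to −22.3) and 7 in placebo-treated KO (mean −40.4, −55.3 to −20.0) in the authors' deposited tables. Arhgef3 had 5 sites with SAMe (mean −32.7) and 8 with placebo (mean −28.7) in the authors' deposited tables. Mmp14, a membrane-bound matrix metalloproteinase gene, had 5 sites in each comparison, with means of −26.5 with SAMe and −26.3 with placebo, in the authors' deposited tables. Clybl had 3 sites with SAMe (−34.4 to −31.2) and 5 with placebo (−53.8 to −21.4) in the authors' deposited tables. The calcium channel gene Cacna1d had 5 sites with SAMe (mean −24.5) and 3 with placebo (mean −23.5), spread over 87414 bp, in the authors' deposited tables. All sites of these 5 genes were lower than in WT.

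Runs of sites within 1 kb of each other differed in size. The longest run, shared by Fut11, a fucosyltransferase gene, and the neighbouring Sec24c, held 11 sites with SAMe (mean −25.6) and 14 with placebo (mean −25.2, within 714 bp) in the authors' deposited tables. The leukotriene receptor gene Ltb4r2 had 4 sites with SAMe (mean −26.1) and 5 with placebo (mean −28.5) within 137 bp in the authors' deposited tables. Klhl33 had a run of 3 sites within 42 bp, with means of −59.4 with SAMe and −52.7 with placebo in the authors' deposited tables. In Opn4, 3 sites within 10 bp had means of −41.5 with SAMe and −45.9 with placebo in the authors' deposited tables. A run 42.9 kb from the exocyst gene Exoc5 had 5 sites with SAMe (mean −32.1) and 3 with placebo (mean −44.8) in the authors' deposited tables. Joined at 1 kb, the sites formed 135 regions with SAMe and 183 with placebo, of which 93 and 121 held a single site.

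At 5 CpG sites both strands were listed, which required each strand to pass the thresholds, so these pairs do not measure repeatability. The placebo differences of the 2 strands lay 0.0994 to 5.71 percentage points apart, smallest in Opn4 (−38.2 on plus and −38.3 on minus) and largest in Arhgef3, in the authors' deposited table. None of the 17 large losses was listed on both strands. Only 5 such CpG sites were found among all 331 listed sites, so this absence does not set the large losses apart.

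Genes of liver metabolism on chromosome 14 were covered by a list of 38. The lists used here were written with earlier results of these data known, so their counts describe only. Of the 38 genes, 11 had a listed site in SAMe-treated KO (28.9%, beside 10.8% of coding genes genome-wide) and 14 in placebo-treated KO (36.8%, beside 12.5%), all lower than in WT. Chdh, which oxidises choline towards the methyl donor betaine, had −29.0 at a site inside it, listed with SAMe alone, in the authors' deposited table. Its one site with placebo, −20.6, was another CpG, within 2 kb of Chdh and inside Cacna1d, which stood at −27.0 with SAMe in the authors' deposited tables. Tkt, the transketolase of the pentose phosphate pathway, stood at −39.6 with SAMe and −26.5 with placebo in the authors' deposited tables. The methionine sulfoxide reductase gene Msra had −38.2 with SAMe and −40.9 with placebo in the authors' deposited tables. Slc39a14, a zinc and iron importer gene of hepatocytes, had −36.3 with SAMe and −30.6 with placebo in the authors' deposited tables. The amino acid transporter gene Slc7a8 had −70.1 with SAMe and −59.9 with placebo in the authors' deposited tables. Hacl1, of peroxisomal fatty acid alpha-oxidation, Cpb2, a secreted inhibitor of fibrinolysis, and the chaperone gene Clu lay between −20.3 and −27.7 in both KO groups in the authors' deposited tables. The adenosine kinase gene Adk (−21.8) and the peptide transporter gene Slc15a1 (−29.4) were listed with placebo alone in the authors' deposited table. The other members with a site, Gch1, Adra1a, Abcc4 and Clybl, are described with the large losses or with the differences between KO groups. Adra1a and Clybl were the 2 of the 38 with a site between the KO groups (5.26%, beside 0.658% of coding genes genome-wide).

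Among 27 nuclear receptor and transcription factor genes, 9 (33.3%) had a site in each WT comparison, all lower. The genome-wide shares of coding genes were 10.8% with SAMe and 12.5% with placebo. Between the KO groups 1 had a site, Gata4 (3.70%, beside 0.658% of coding genes genome-wide). Nr1d2, a clock repressor, stood at −49.0 with SAMe and −45.1 with placebo at a site 1.33 kb outside the gene in the authors' deposited tables. The thyroid hormone receptor gene Thrb had −23.0 with SAMe and −28.1 with placebo in the authors' deposited tables. Ebf2, Hmbox1, Nfatc4 and Sall2, by the largest site of each, lay between −22.8 and −34.6 with SAMe and between −26.4 and −32.0 with placebo in the authors' deposited tables. Zmiz1 is given above. Tsc22d1 (−25.4) and Zic5 (−27.5) were listed with SAMe alone in the authors' deposited table. Gata4 (−21.8) and Kat6b (−20.5) were listed with placebo alone among the WT comparisons in the authors' deposited table.

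Of 29 growth control and signalling genes, 6 had a site in each WT comparison, 5 lower and 1 (Gdf10) higher (20.7%, beside 10.8% genome-wide with SAMe and 12.5% with placebo). Between the KO groups 2 had one, Rhobtb2 and Fgf14 (6.90%, beside 0.658%). Bap1, a deubiquitinase gene also on the chromatin list, had −31.7 with SAMe and −32.7 with placebo at a site within 2 kb of it and inside Dnah1 in the authors' deposited tables. The kinase gene Stk24 had −31.8 with SAMe and −26.6 with placebo at position 121348498 in the authors' deposited tables. At position 121331313 it had −29.4 with placebo alone, and the glypican gene Gpc6 had −23.4 with SAMe alone, in the authors' deposited tables. Of 16 chromatin and RNA methylation genes, 2 had a site in each WT comparison (12.5%, beside 10.8% genome-wide with SAMe and 12.5% with placebo) and 0 between the KO groups. They were Bap1 in both, Chd8 with SAMe (−24.2) and Kat6b with placebo in the authors' deposited tables. Among 20 markers of other liver cells, 4 had a site with SAMe (beside 10.8% of coding genes genome-wide), 5 with placebo (beside 12.5%) and 0 between the KO groups. These were Bmp4, Mmp14, Wdfy4 and Scara5 in both, and the endothelial scavenger receptor gene Stab1 with placebo alone (−24.3) in the authors' deposited table. Shares of cell types in the livers were not measured, so a change in cell makeup and a change within cells cannot be told apart.

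Gains on chromosome 14 were few. A higher level than in WT was listed at 10 sites in either comparison, 5 with SAMe and 8 with placebo. Scara5, a ferritin receptor gene, had 1 site with SAMe (29.5) and 3 neighbouring sites with placebo (34.6, 28.7 and 25.7) in the authors' deposited tables. Haus4, a gene of the augmin complex of the spindle, stood at 26.3 with SAMe and 20.8 with placebo in the authors' deposited tables. A site 257 kb from the formin gene Diaph3 stood at 27.9 with SAMe and 21.1 with placebo in the authors' deposited tables. The growth factor gene Gdf10 gained 22.4 with SAMe and 26.0 with placebo at separate but neighbouring sites in the authors' deposited tables. Slitrk1 (20.5) gained with SAMe alone, and sites 76.2 kb from Ptpn20 (33.4) and 59.9 kb from Abcc4 (26.9) with placebo alone, in the authors' deposited tables.

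SAMe-treated KO liver was next set against WT liver. Methylation was lower at 198 of 203 listed sites (97.5%, exact binomial 95% interval 94.3 to 99.2) and higher at 5 (2.46%, against 0.985% of all sites listed in KO SAMe vs WT). The largest q-value was 0.00114. The median was −27.5 percentage points, against −26.6 over all listed sites. The sites lay in or within 2 kb of 93 of 850 coding genes (10.9%), against 10.8% genome-wide. At least 60 points were reached at 12 sites (5.91%, exact binomial 95% interval 3.09 to 10.1), against 0.669% of all sites listed in KO SAMe vs WT, and at least 40 at 40 sites (19.7%), against 10.8%. Chromosome 12 had 6 of 203 at 60 or more, and chromosome 18 again had a larger share at 40 or more, 43 of 164 (26.2%). In the authors' deposited table the losses were greatest in Arhgef40 (−98.4), in Shld2 (−95.7) and near Peli2 (−94.5). Klhl33 had 3 neighbouring sites, at −64.9, −57.0 and −56.3 with SAMe and −55.3, −52.8 and −49.9 with placebo, in the authors' deposited tables. A site 2.95 kb from Tpt1, the translationally controlled tumour protein gene, stood at −52.7 with SAMe and −47.0 with placebo in the authors' deposited tables. Gch1 and Efs, with −94.1 and −83.5 in placebo-treated KO, were listed neither for SAMe against WT nor between the KO groups, in the authors' deposited tables. No SAMe level could lie within 20 points of both other groups there, so the SAMe group lacked coverage at these sites or missed the q-value limit.

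At 158 chromosome 14 sites a value was listed in both WT comparisons, which share the WT animals. These were 77.8% of the chromosome's SAMe sites, beside 68.9% genome-wide, and 56.4% of its placebo sites, beside 55.2% genome-wide. Subtracting the 2 differences cancels WT and leaves SAMe minus placebo, which had a median of 0.60 percentage points, with quartiles of −3.38 and 4.07. Over the 3549 such sites of other chromosomes the median was −0.53, with quartiles of −3.76 and 2.70. Only sites that passed the size limit against WT in both KO groups enter these medians. A site where either KO group lay near WT is left out. The small medians thus follow in part from this choice. They do not show how the KO groups compared at sites listed in a single WT comparison.

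**Figure D4:**
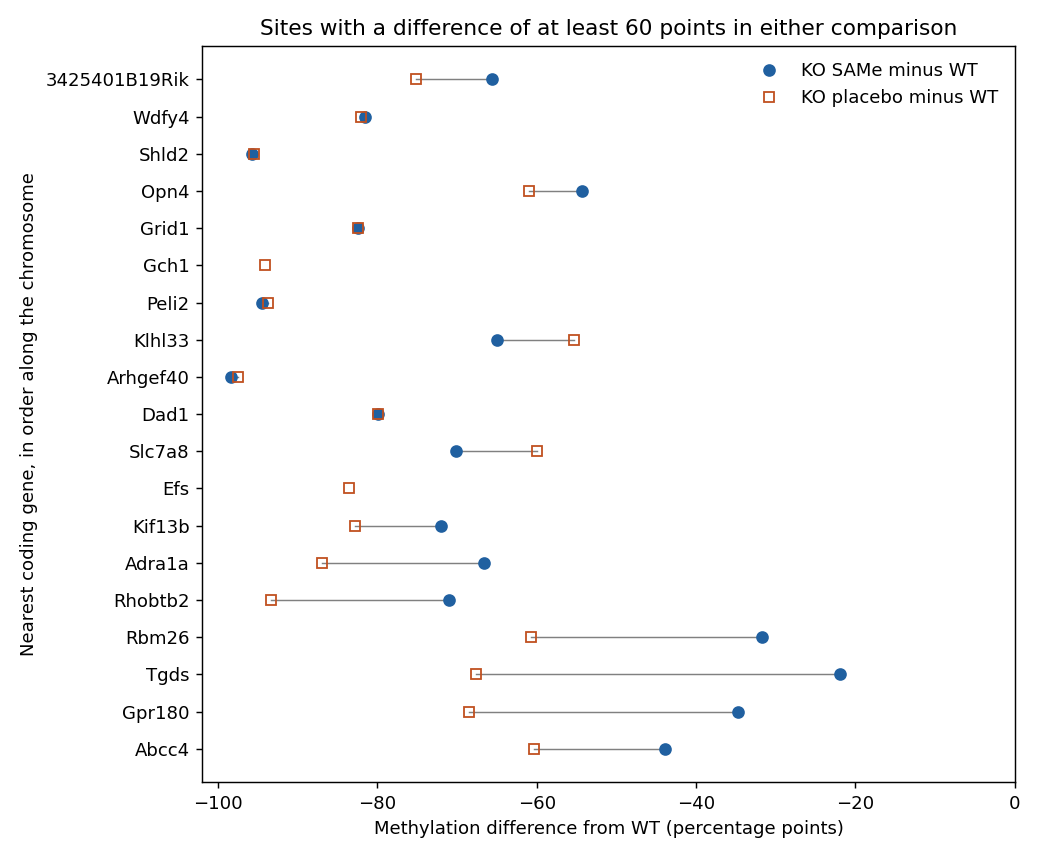
Difference from WT in percentage points (x axis) for KO SAMe (filled circles) and KO placebo (open squares) at the 19 sites that reached 60 points in either, named by nearest coding gene in order along the chromosome from the top. From 3425401B19Rik to Slc7a8 the markers lie 10.1 points or less apart. From Kif13b to Abcc4 the SAMe marker is 10.8 to 45.7 points closer to WT. From Rbm26 to Abcc4 only placebo reached 60 points, which fixes that order. Gch1 and Efs have no SAMe value listed.

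The large losses fell into 2 stretches of the chromosome by how the KO groups compared, a division made after the values were seen. At the 10 sites within 20 Mb of Mat1a that had both values, SAMe minus placebo ran from −10.1 to 9.50 percentage points, with a median of −0.10. The losses near Grid1 (−82.4) and Dad1 (−79.9) and the smaller one near Ghitm were the same in both KO groups to every digit listed in the authors' deposited tables. Such equality occurred at 3 of 158 sites on chromosome 14 and at 1 of 3549 elsewhere. At the 3 large sites 23.5 to 28.7 Mb from Mat1a, SAMe minus placebo was 10.8, 20.4 and 22.4. At the 4 sites 63.9 to 77.4 Mb away it ran from 16.4 to 45.7, so the 7 sites of these stretches all had the SAMe group nearer to WT. On other chromosomes, 12 of 32 large sites had higher values with SAMe, with a range of −38.5 to 29.0 and a median of −3.16. All 7 distant sites reached 60 points with placebo and 3 of them with SAMe. Of the 10 nearer ones, 8 did so with placebo and 9 with SAMe. A site that reached 60 points in 1 KO group alone is nearer to WT in the other by that choice. This holds for the 4 sites 63.9 to 77.4 Mb away, which passed with placebo alone, so their direction was fixed by the selection. Among sites under 60 points in both WT comparisons, 39 were higher and 37 lower with SAMe of 77 within 20 Mb (median 0.20), and 31 higher and 24 lower of 55 between 20 and 50 Mb (median 0.93). Of the 9 more than 50 Mb away, 6 were higher and 3 lower with SAMe, with a median of 2.13. These smaller sites were all listed in both WT comparisons, so sites where either KO group lay near WT are left out. No value per animal is in the tables, so the part of single animals in this pattern was not tested.

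The remaining comparison set SAMe against placebo within KO mice. On chromosome 14, 15 of 16 listed sites were higher with SAMe and 1 lower, beside 161 higher of 230 (70.0%) genome-wide. The chromosome held 6.96% of the sites of this comparison. All 16 stood alone, as did 199 of the 230 genome-wide. Inside a coding gene lay 8 of the 16 (50%, beside 56.5% genome-wide), and 8 lay over 2 kb from any coding gene. The sites hit 8 of 850 coding genes (0.941%), against 0.658% genome-wide. The largest q-value was 0.0453. The one difference of at least 40 points in the genome-wide table (0.435% of its sites) was here. At position 118103181, 8.73 kb from Tgds, a sugar nucleotide dehydratase gene, SAMe minus placebo was 45.7 (q listed as 0) in the authors' deposited table. That site stood at −21.9 from WT with SAMe and −67.6 with placebo in the authors' deposited tables. In Gpr180, 54842 bp farther along, the difference between the KO groups was 33.8, with −34.7 from WT under SAMe and −68.5 under placebo, in the authors' deposited tables.

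**Figure D5:**
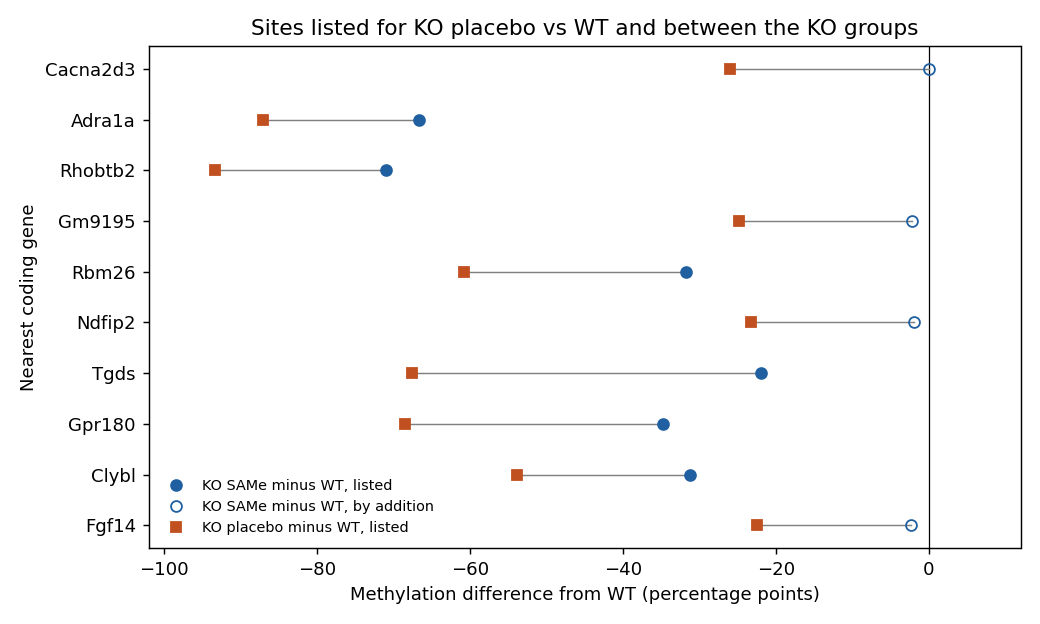
Difference from WT in percentage points at the 10 chromosome 14 sites listed for KO placebo vs WT and between the KO groups, named by nearest coding gene in order along the chromosome from the top. Filled circles are KO SAMe as listed, open circles KO SAMe by addition, and squares KO placebo. Every SAMe marker is closer to 0, and the thresholds limit how far below 0 the open circles can lie.

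Of the 16 sites, 10 were also listed for placebo-treated KO against WT, and 6 of these for SAMe-treated KO against WT. These tables share the placebo or SAMe animals, so their values are given side by side and not as independent support. Besides Tgds and Gpr180, the 6 sites in all tables were those of Adra1a, Rhobtb2, Clybl and a site 93.8 kb from Rbm26. Adra1a stood at −66.6 from WT with SAMe and −87.0 with placebo, a difference between KO groups of 20.4, in the authors' deposited tables. Rhobtb2 stood at −71.0 with SAMe and −93.3 with placebo, a difference of 22.4, in the authors' deposited tables. The site near Rbm26, an RNA-binding protein gene, stood at −31.7 with SAMe and −60.8 with placebo, a difference of 29.1 (q = 5.88e-07), in the authors' deposited tables. Clybl, a mitochondrial gene of citramalyl-CoA breakdown, stood at −31.2 with SAMe and −53.8 with placebo at position 122398903, a difference of 22.6 (q = 5.84e-05), in the authors' deposited tables. Both KO groups were below WT at these 6 sites. Listing in both WT comparisons required more than 20 points from WT, so a remaining difference was fixed by the selection. The exporter gene Abcc4, close to Gpr180, followed the same order with −43.9 under SAMe and −60.3 under placebo in the authors' deposited tables, but the difference of 16.4 lies below the threshold for listing.

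At the other 4 sites placebo-treated KO was listed against WT and SAMe-treated KO was not, and addition gave SAMe values near 0. With losses of −22.4 to −26.0 and listed gains above 20, the thresholds limit how far below 0 such a sum can lie. Values near 0 thus follow largely from how these sites were picked. The site 76.2 kb from the calcium channel subunit gene Cacna2d3 came to 0.00 from WT with SAMe by addition, and stood at −26.0 with placebo in the authors' deposited table. The corresponding values were −2.15 with SAMe and −24.8 with placebo for a site in the noncoding gene Gm41205, 268 kb from Gm9195, in the authors' deposited tables and by addition. They were −1.90 with SAMe and −23.2 with placebo for a site 45.0 kb from Ndfip2, an adaptor gene of Nedd4-family ubiquitin ligases. They were −2.27 with SAMe and −22.4 with placebo in Fgf14, an intracellular fibroblast growth factor homologue.

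The remaining 6 sites were listed between the KO groups alone. SAMe minus placebo was 20.4 in Cadps, which acts in vesicle release, and 23.5 in Sh3bp5 (q = 0.0319) in the authors' deposited table. It was 25.7 at a site 2.04 kb from Acod1, which makes itaconate in macrophages, and 24.4 and 20.3 at sites 116 kb from Gm2244 and 498 kb from Trim52, in the authors' deposited table. Gata4, a transcription factor gene of endoderm and heart, had the one lower value, −20.5 (q = 0.0453) in the authors' deposited table, at position 63255347. Its site in placebo-treated KO against WT, −21.8 at position 63240935 in the authors' deposited table, was a different CpG.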

How the data were processed

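Liver DNA was read by reduced-representation bisulfite sequencing, and the submitters' processing notes name CASAVA 1.8.2, Trim Galore, Bismark, methylKit and mm10. The authors deposited 3 tables of CpG sites that passed their thresholds, with a difference score in percentage points, a p-value and a q-value per site. Numbers of animals are from the labels. No value per animal or coverage is held, so no test of animals, SD or leave-one-out was possible, depth is unknown, and the tissue label could not be checked against markers. Positions were joined to 21896 RefSeq coding genes (GRCm38.p6), extended by 2 kb. Shares have exact binomial 95% intervals. The joins were tested on simulated sites. Analyses used Python 3.11.15, pandas 2.3.3 and SciPy 1.17.1. Sites, distances and the 5 gene lists were chosen with earlier results of these data known. Named sites are, per WT comparison, the 15 largest losses (1 per gene) and all gains, all sites between KO groups, the 8 genes with most sites, sites within 5 Mb of Mat1a, and listed members of the lists. Sites listed on both strands, sites equal in both KO groups and distance classes were chosen after their values were seen.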

Additional observations from a re-analysis of the deposited data

Results flagged for a closer look

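The 2 KO groups differed from each other, by the authors' own test, at 10 chromosome 14 sites that were also listed for placebo-treated KO against WT. In the authors' deposited table, KO SAMe minus KO placebo was 45.7 percentage points near Tgds, 33.8 in Gpr180, 29.1 near Rbm26, 22.6 in Clybl, 22.4 in Rhobtb2 and 20.4 in Adra1a. At these 6 sites both KO groups were listed as lower than WT. The same difference was 26.0 near Cacna2d3, 22.7 near Gm9195, 21.3 near Ndfip2 and 20.2 in Fgf14 in the authors' deposited table, where the SAMe group was not listed against WT. The spread between animals behind these 10 differences is not in the tables.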

How the results depend on the processing

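Of 37 alternative settings, 11 moved a result, 0 reversed it, and 26 left it within 1.5 times a reported count or within the 95% interval of a reported share or median. The shares of large losses near Mat1a have wide intervals. With an absolute difference of at least 25 percentage points, the listed chromosome 14 sites numbered 130 for KO SAMe vs WT, 164 for KO placebo vs WT, 97 for both and 5 between KO groups. The medians were then −32.9 with SAMe and −30.7 with placebo, as a stricter size limit must give, and 1 gene had a site between KO groups. With a q-value under 0.001, 10 of the 16 sites between KO groups remained. The share of losses of at least 60 points near Mat1a was 0 with SAMe and 0 with placebo within 5 Mb, where 2 and 3 sites are listed. Within 20 Mb it was 8.18% with SAMe and 6.94% with placebo, against 18.2% and 15.6% within 10 Mb. Within 10 Mb it was 33.3% with SAMe and 31.1% with placebo at 40 points, and 31.6% and 23.3% when sites within 1 kb were counted once. No paired analysis was possible because the tables hold no values per animal. Depth limits the values to an unknown extent, since coverage is not in the tables.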
